A study of Mus musculus with 13 samples.

Results

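A set of 10 imprinted genes expressed from the paternal chromosome, Peg10, Sgce, Mest, Peg3, Usp29, Snrpn, Plagl1, Impact, Nnat and Airn, were followed in the RNA of mouse embryonic stem (ES) cells. The genes were chosen by symbol, for lying outside the H19-Igf2, Kcnq1ot1 and Dlk1-Meg3 domains, and they occupy 8 loci. Of the 10 genes, 9 were among the 26797 genes listed for the replicate libraries (Nnat was not listed), and all 10 were among the 49671 genes of the count table. The replicate libraries were 3 of WT ES cells, the AinV15 line, and 3 of Dnmt1-/- ES cells, a separate null line that carries the C allele. The count table held 1 library each of WT cells, of Dnmt1-/- cells, and of wild-type AinV15 cells that expressed dCas9-OGA or dCas9-OGA-D242A. In both of the latter a doxycycline-inducible fusion of catalytically dead Cas9 with a bacterial O-GlcNAc hydrolase was directed by 4 sgRNAs to IAP retrotransposons, and D242A is a substitution that inactivates the hydrolase. The labels do not give the line of the single WT library, and the single WT and Dnmt1-/- libraries are not tied by their labels to any replicate. The WT and Dnmt1-/- replicates are different cell lines, so the genotype and the line cannot be told apart, and no label says that the 3 libraries of a group came from separate cultures, so p-values measure the spread between these libraries only.

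An imprinted gene is transcribed from only one parental chromosome. At most loci described here the maternal copy carries DNA methylation, laid down in the oocyte, over a CpG-rich start region, and the paternal copy is unmethylated and active. DNMT1 copies methylation onto new DNA strands at each replication, and ZFP57 and ZFP445 bind methylated copies of the imprinting control regions and recruit TRIM28. The counts do not separate the parental alleles, so every value below is the sum of both copies.

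The libraries were deep enough for all but the weakest of these transcripts. Between 26846275 and 37112247 reads on genes were recovered per WT replicate, between 27934568 and 30950554 per Dnmt1-/- replicate, and between 18693531 and 25097983 counts per single library. Dnmt1, the gene disrupted in the null line, had a normalized signal of 308, 352 and 347 in WT replicates and of 73.6, 75.4 and 77.6 in Dnmt1-/- replicates, and 11408 and 1176 counts in the single WT and Dnmt1-/- libraries. The ES cell markers Pou5f1, Nanog, Zfp42, Esrrb and Tdgf1 summed to a signal of 3323 to 3463 in WT and 3361 to 3502 in Dnmt1-/- replicates. Other markers moved with the group. The 6 fibroblast markers summed to 1016 to 1472 in WT and 253 to 280 in Dnmt1-/-, and all 6 were lower. The 4 neural markers listed summed to 102 to 117 and 42.5 to 45.6, and the 5 endoderm markers to 71.8 to 76.8 and 91.3 to 100, with Afp at or near 0 throughout. The part of these markers in the results below was not tested, and in a bulk sample fewer cells of a type and less RNA per cell cannot be told apart.

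The genes have different arrangements at their start sites (GRCm38, positions from GENCODE vM21). On chromosome 6, Sgce (4674350 to 4747207, minus strand) and Peg10 (4747306 to 4760517, plus strand) start 99 bases apart and are read away from each other. On chromosome 7, Peg3 (6703892 to 6730431, minus) and Usp29 (6730578 to 6967219, plus) likewise start 147 bases apart. Mest lies at 30723547 to 30748465 on chromosome 6 (plus), Snrpn at 59982495 to 60140219 on chromosome 7 (minus) and Plagl1 at 13060504 to 13131694 on chromosome 10 (plus). Nnat, at 157560078 to 157562522 on chromosome 2 (plus), lies wholly inside the span of Blcap on the other strand. Airn, at 12741311 to 12860136 on chromosome 17 (plus), is an antisense transcript that starts inside Igf2r.

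Start regions of 7 of the 10 genes were read from the RefSeq table of GRCm38.p6, as windows of 300 bases from 250 before to 50 after the start. Impact was left out of this search. They were searched on both strands for TGCCGC, the core letters of the ZFP57 motif, whose reverse complement is GCGGCA. Either form occurred in 11.6% of the 32851 windows of the table and the median window held 7 CpGs. Of the 7 genes, 4 (Nnat, Mest, Snrpn and Plagl1) had TGCCGC in a window, and of the 12 windows of the 7 genes, some of which overlap, 5 held it. These 4 windows, and that of Peg3, which overlaps the window of Usp29 by 263 bases, are printed in the direction of transcription because their genes differed most, or differed from a partner at the same start region, in the comparisons that follow. Capitals mark the motif letters.
Nnat, chr2:157559828-157560127, plus strand: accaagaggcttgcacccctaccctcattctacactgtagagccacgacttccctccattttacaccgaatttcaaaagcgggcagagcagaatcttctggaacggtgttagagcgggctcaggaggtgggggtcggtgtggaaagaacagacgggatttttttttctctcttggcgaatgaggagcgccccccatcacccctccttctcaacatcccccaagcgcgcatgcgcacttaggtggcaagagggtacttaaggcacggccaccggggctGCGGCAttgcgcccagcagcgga
Mest, chr6:30737800-30738099, plus strand: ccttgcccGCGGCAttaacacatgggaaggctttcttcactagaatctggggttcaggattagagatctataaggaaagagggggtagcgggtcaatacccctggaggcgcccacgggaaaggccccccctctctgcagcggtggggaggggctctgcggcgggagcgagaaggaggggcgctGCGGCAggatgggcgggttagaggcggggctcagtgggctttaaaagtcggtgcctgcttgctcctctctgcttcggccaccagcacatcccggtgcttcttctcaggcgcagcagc
Plagl1, chr10:13090582-13090881, plus strand: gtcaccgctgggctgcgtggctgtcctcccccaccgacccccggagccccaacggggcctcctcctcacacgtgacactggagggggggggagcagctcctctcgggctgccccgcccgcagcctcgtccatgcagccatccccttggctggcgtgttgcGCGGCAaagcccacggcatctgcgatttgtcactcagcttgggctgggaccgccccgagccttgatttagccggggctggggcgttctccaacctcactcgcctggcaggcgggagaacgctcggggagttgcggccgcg
Snrpn, chr7:60005150-60005449, minus strand: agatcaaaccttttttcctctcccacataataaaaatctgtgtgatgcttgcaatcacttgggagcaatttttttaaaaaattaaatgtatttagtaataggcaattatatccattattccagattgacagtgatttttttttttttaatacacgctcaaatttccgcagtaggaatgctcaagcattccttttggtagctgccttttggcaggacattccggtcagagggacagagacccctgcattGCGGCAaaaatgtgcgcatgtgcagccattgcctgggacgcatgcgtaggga
Peg3, chr7:6730370-6730669, minus strand: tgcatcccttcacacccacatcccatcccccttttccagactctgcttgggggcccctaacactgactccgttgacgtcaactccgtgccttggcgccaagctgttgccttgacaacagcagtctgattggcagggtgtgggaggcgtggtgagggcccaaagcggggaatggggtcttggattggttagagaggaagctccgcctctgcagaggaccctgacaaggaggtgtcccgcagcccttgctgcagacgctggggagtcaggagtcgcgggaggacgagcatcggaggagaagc
The Nnat window held 17 CpGs and 1 TGCCGC match. The Mest window held 17 CpGs and 2 TGCCGC matches, and a further Mest start at 30733256 to 30733555 held 8 CpGs and no match. The Plagl1 window was the richest in CpG, with 26, more than in 83.1% of all windows, and it held 1 match. The Snrpn window held 7 CpGs and 1 match, the other 3 Snrpn windows in the table held 2 to 4 CpGs and no match, and the Peg3 and Usp29 windows held 13 and 17 CpGs without a match. A match is a description of letters and not a bound site.

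The first comparison asks how these genes stood in ES cells that lack DNMT1. Peg10, Mest and Plagl1 were higher in Dnmt1-/- than in WT replicates by 5.83-fold, 3.53-fold and 2.51-fold in mean signal. Usp29 and Snrpn were lower by 3.04-fold and 3.47-fold, at low levels, and Sgce was lower by 1.25-fold. Impact was higher by 1.08-fold, and Peg3 and Airn did not pass the test. The genes therefore moved in both directions, and at each of the 2 shared start regions the partners had unequal log2 fold changes.

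Of the 9 genes tested, 7 passed an adjusted p of 0.05 (limma on log2 of the signal plus 0.5, Benjamini-Hochberg over 17297 genes), 4 higher and 3 lower. Among all genes tested 71.2% passed, 35.8% higher and 35.4% lower, so the share of these genes that passed was near the background. For 3 of the 9 the rise and for 2 the fall reached 2-fold, where 3.67% of all genes rose and 9.41% fell by as much. The 2 falls (Usp29 and Snrpn) did not reach 2-fold with a pseudocount of 2, and that of Snrpn did not without Dnmt1-/- replicate 3 (−0.96). The median log2 fold change of the 9 genes was −0.02, against 0.01 for all genes, and the median size of the change without its sign was 1.08, against 0.36. The WT and Dnmt1-/- values did not overlap for 7 of the 9, and for 73.3% of all genes.

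**Figure D1:**
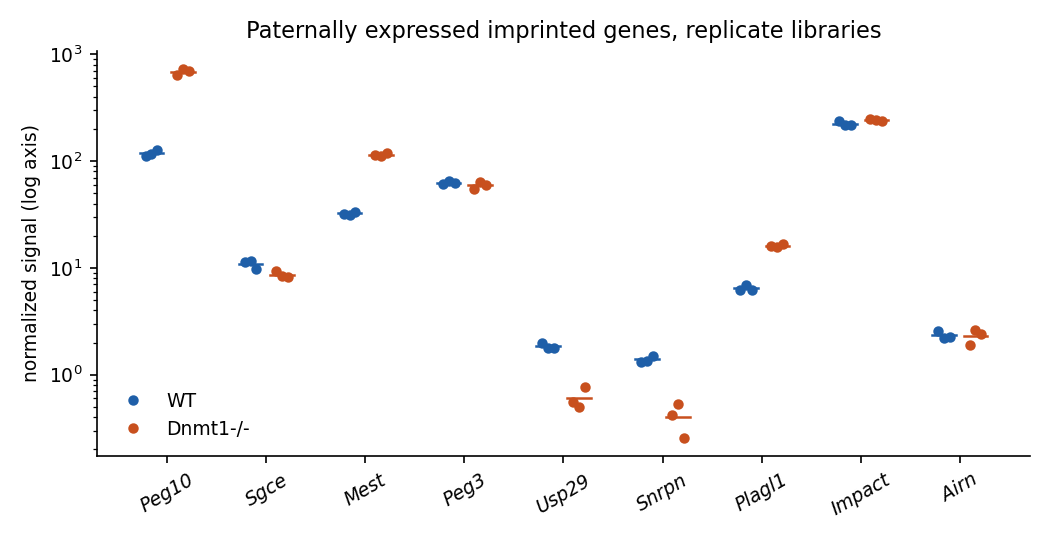
Normalized signal (log axis) of the 9 listed genes in each of the 3 WT and 3 Dnmt1-/- replicate libraries; points are libraries and bars are group means. Peg10, Mest and Plagl1 sit higher in all 3 Dnmt1-/- libraries, Usp29 and Snrpn lower, and the groups overlap for Peg3 and Airn.

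Peg10 encodes a protein derived from a retrotransposon and is required for the placenta. Its signal was 111, 116 and 126 in the WT libraries and 633, 725 and 700 in the Dnmt1-/- libraries. Every Dnmt1-/- library thus lay far above every WT library. The log2 fold change was 2.54 (SE 0.06, adjusted p = 1.75e-21, limma), larger than that of 99.8% of the genes tested. Sgce, the epsilon-sarcoglycan that starts beside it, had 11.3, 11.6 and 9.66 in WT and 9.40, 8.32 and 8.22 in Dnmt1-/-. The groups were narrowly apart, with a log2 fold change of −0.31 (SE 0.09, adjusted p = 0.00486, limma). The ratio of Peg10 to Sgce signal was 9.82, 10.0 and 13.1 in WT and 67.3, 87.1 and 85.1 in Dnmt1-/-, a log2 difference of 2.87 (two-sided exact permutation p = 0.1, the smallest that 3 against 3 libraries allow). No exon base of either gene is covered by another gene in the annotation.

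Mest encodes an enzyme of the alpha/beta hydrolase fold. Its signal was 32.1, 31.6 and 33.5 in WT and 113, 112 and 118 in Dnmt1-/-, with little spread in either group. The log2 fold change was 1.80 (SE 0.05, adjusted p = 2.33e-19, limma). In the annotation other genes, among them Copg2 on the other strand, overlap Mest and cover 23.1% of its exon bases. Plagl1 encodes a zinc finger transcription factor whose start region, printed above, holds 26 CpGs. It had a signal of 6.22, 6.91 and 6.21 in WT and of 16.1, 15.6 and 16.8 in Dnmt1-/-, again without overlap, and a log2 fold change of 1.26 (SE 0.09, adjusted p = 2.47e-12, limma).

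Peg3, a zinc finger gene, was at 61.3, 64.9 and 62.0 in WT and 54.4, 63.5 and 59.4 in Dnmt1-/-. The groups overlapped, and the log2 fold change of −0.09 (SE 0.06) had an adjusted p of 0.179 (limma). Usp29, a member of the ubiquitin-specific protease family read from the other side of the same start region, was at 1.96, 1.79 and 1.80 in WT and at 0.557, 0.493 and 0.774 in Dnmt1-/-. All Dnmt1-/- libraries were below all WT libraries, and the log2 fold change was −1.09 (SE 0.14, adjusted p = 2.58e-07, limma) from 50 to 69 reads per WT library and 15 to 21 per Dnmt1-/- library. With reads this few the pseudocount sets the size: the log2 fold change was −0.56 with a pseudocount of 2 and −1.48 with 0.1, and −1.62 under edgeR and DESeq2 on the recovered reads. In the annotation other genes, among them Zim3 on the other strand, overlap Usp29 and cover 35.2% of its exon bases. The ratio of Peg3 to Usp29 signal was 31.2, 36.2 and 34.5 in WT and 97.6, 129 and 76.8 in Dnmt1-/-, a log2 difference of 1.54 (two-sided exact permutation p = 0.1, the smallest possible).

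Snrpn encodes the spliceosomal protein SmN and shares its transcript with Snurf. Its signal was 1.31, 1.35 and 1.51 in WT and 0.418, 0.526 and 0.258 in Dnmt1-/-. The groups were apart, but on 40 to 52 reads per WT library and 7 to 16 per Dnmt1-/- library. The log2 fold change was −1.08 (SE 0.15, adjusted p = 6.94e-07, limma), −0.50 and −1.61 with pseudocounts of 2 and 0.1, and −1.79 under DESeq2 on the recovered reads. In the annotation 94.2% of the exon bases of Snrpn are covered by other genes, among them Snurf. Of the 26797 genes common to both tables, 46.6% to 47.8% lay below Snrpn in the WT replicates and 90.4% lay below it in the single WT library. In the Dnmt1-/- replicates 35.3% to 41.1% lay below it, so its place differed between the tables more than between these groups.

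Impact, whose protein restrains the translation-control kinase GCN2, had a signal of 235, 217 and 218 in WT and 247, 240 and 238 in Dnmt1-/-. Every Dnmt1-/- library was above every WT library by a narrow margin, and the log2 fold change of 0.12 (SE 0.05) had an adjusted p of 0.0382 (limma). The call was lost under edgeR (adjusted p = 0.0567) and DESeq2 (adjusted p = 0.0595), without the filter on low values (adjusted p = 0.0601, limma), and without WT replicate 2 (adjusted p = 0.104), WT replicate 3 (adjusted p = 0.115), Dnmt1-/- replicate 1 (adjusted p = 0.132) or Dnmt1-/- replicate 2 (adjusted p = 0.0793). Airn, a noncoding RNA whose transcription silences the paternal copy of Igf2r in differentiated cells, was at 2.59, 2.18 and 2.26 in WT and 1.91, 2.63 and 2.39 in Dnmt1-/-. The groups overlapped, with a log2 fold change of −0.02 (SE 0.13, adjusted p = 0.892, limma), and the sign turned without WT replicate 1 (0.04) or Dnmt1-/- replicate 1 (0.08). Other genes cover 51.6% of the span of Airn and 26.0% of its exon bases. The strand setting of the counting is not given in the sources used here. Reads of Airn and of its antisense partners over the covered bases therefore cannot be told apart.

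**Figure D2:**
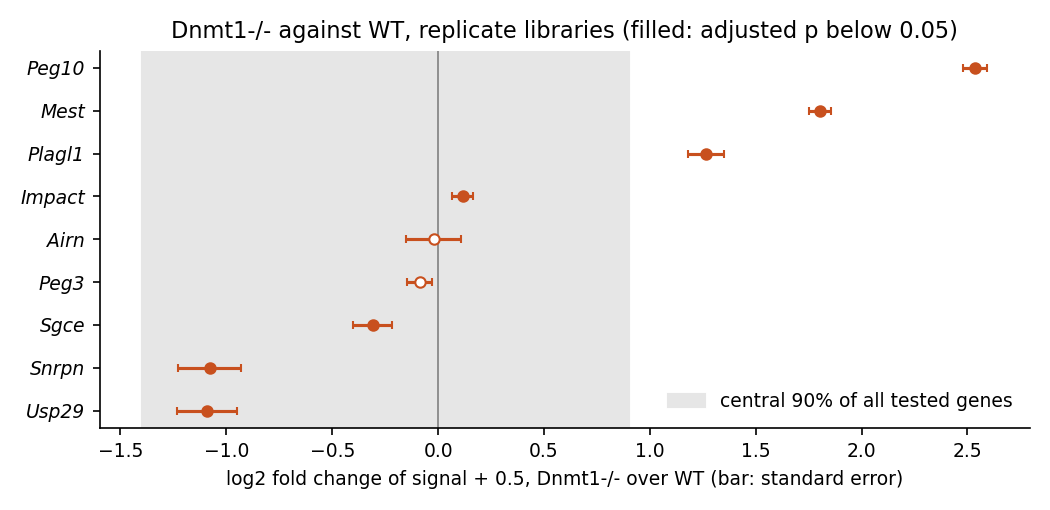
Log2 fold change of the signal plus 0.5, Dnmt1-/- over WT, of the 9 genes in the replicate libraries, with standard errors; filled points passed an adjusted p of 0.05 and the gray band holds the central 90% of the 17297 genes tested, from −1.40 to 0.90. Peg10, Mest and Plagl1 lie above the band, and Usp29, Snrpn and the other genes inside it.

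A list of 20 further paternally expressed genes was set beside the 10, of which 10 were in the replicate files and 9 could be tested. Of these, 7 were higher, 1 was lower (Zfp264) and 1 (Jade1) did not pass, against 35.8% and 35.4% of all genes, and their median log2 fold change was 0.45. Peg12, an intronless gene of the Snrpn domain, was the only one past 2-fold. Its signal was 3.83, 3.79 and 4.17 in WT and 14.5, 12.9 and 14.1 in Dnmt1-/-, a log2 fold change of 1.70 (SE 0.09). Snurf was not listed in the replicate files and had 0 counts in each of the 4 single libraries. All of its exon bases lie under other genes, among them Snrpn, with 800 to 3463 counts in the same libraries, so the 0 gives no limit on its RNA.

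Genes listed as neighbors of the 10 imprinted genes were read in the same fit. Not all of them are adjacent: Zik1, listed with Peg3 and Usp29, lies at 10487229 to 10495394 on chromosome 7, far beyond the end of Usp29 at 6967219. Of 34 neighboring genes in the files 24 were tested, 7 rose, 6 fell and 11 did not pass, where 35.8% of all genes rose and 35.4% fell, and their median log2 fold change was −0.002. Beside Peg10 and Sgce, Tfpi2, a protease inhibitor, fell by 2.14 on the log2 scale, from 4.09, 3.92 and 2.95 in WT to 0.557, 0.329 and 0.442 in Dnmt1-/-. In the Snrpn domain Atp10a, a phospholipid transporter, fell by 1.62. In the single libraries Atp10a was instead higher in Dnmt1-/-, with 435 against 298 counts (log2 ratio 0.90). No other gene of this neighbor list fell by 2-fold or more in the replicates. Col1a2, counted above as a fibroblast marker and not in this list, lies between Tfpi2 and Casd1 and fell by 2.47. Smaller rises that passed included those of Ppp1r9a beside Peg10 (0.90), Cep41 beside Mest (0.78) and Zim1 beside Peg3 (0.69). Smaller falls that passed included those of Phactr2 beside Plagl1 (−0.87), Pon3 on the Peg10 side (−0.63) and Casd1 beside Sgce (−0.50). Of 4 named genes that share or flank a transcript of the 10, Igf2r (−0.07), Blcap (−0.02), Copg2 (0.08) and Ube3a (0.01) did not pass the test, with adjusted p-values between 0.146 and 0.876 (limma).

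**Figure D3:**
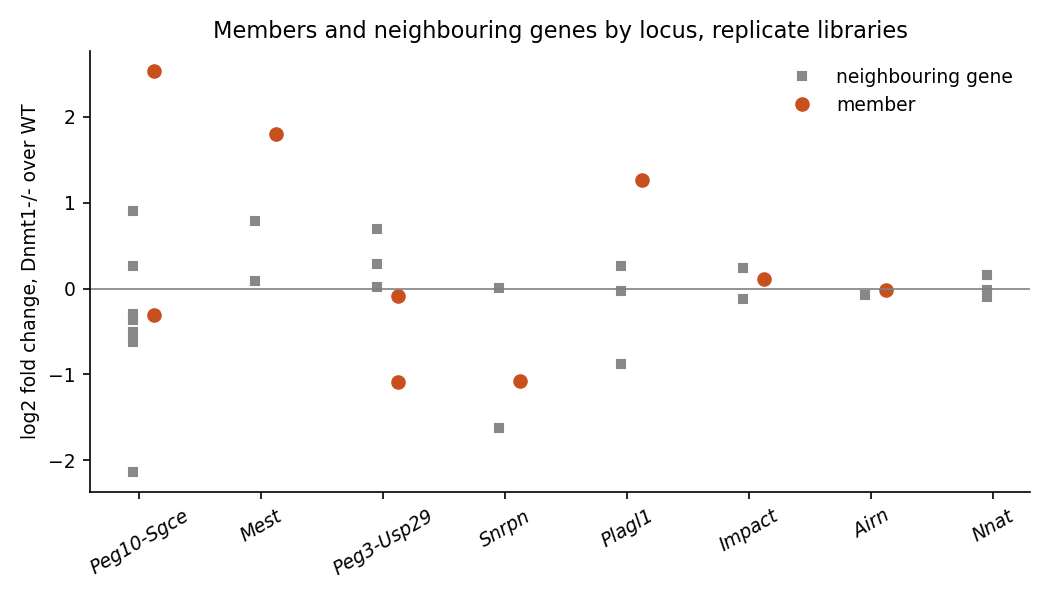
Log2 fold change, Dnmt1-/- over WT replicate libraries, of the imprinted genes (circles) and of 23 of the 24 tested neighboring genes (squares), by locus. At the Mest and Plagl1 loci the imprinted gene lies above all neighbors shown, at the Peg10-Sgce and Peg3-Usp29 loci the paired genes separate, and Nnat itself was not listed.

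Of the factors that maintain imprints, all 7 examined passed the test in the replicate libraries, as did 71.2% of all genes. Dppa3, which protects maternal methylation in the zygote, rose by 3.10 on the log2 scale and Dnmt3l, the cofactor of the de novo methyltransferases, by 1.61. Zfp57, Setdb1, Uhrf1 and Trim28 rose by 0.40, 0.41, 0.37 and 0.26, and Zfp445 fell by 0.32. In the single libraries only Dppa3 kept its direction, with a log2 ratio of Dnmt1-/- to WT of 2.84. There Zfp57, Setdb1, Uhrf1, Trim28 and Dnmt3l were lower in Dnmt1-/- (−0.34, −0.33, −0.53, −0.45 and −0.31) and Zfp445 was higher (0.59).

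The second comparison sets dCas9-OGA against dCas9-OGA-D242A, 1 library each, so the differences have no replicate check and no test. All 8 genes with at least 100 counts over the pair were lower in dCas9-OGA. Neuronatin (Nnat), a small membrane proteolipid, was lower by 29.1-fold and Plagl1 by 12.5-fold, and the other 6 by between 1.68-fold and 2.64-fold, all without a pseudocount. Counts were expressed as cpm, scaled with edgeR's TMM factors and compared as log2(cpm + 0.5), and intervals are exact and cover counting error only.

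Nnat had 496 counts in dCas9-OGA-D242A and 17 in dCas9-OGA, or 19.96 and 0.685 cpm. The fold without a pseudocount had a 95% interval of 18.0 to 50.4, and only 0.0472% of the 12722 genes compared had a lower log2 ratio than the −4.11 of Nnat. The single WT and Dnmt1-/- libraries held 352 and 371 counts of Nnat, so the dCas9-OGA library alone was low. Blcap, which spans Nnat on the other strand, had a log2 ratio of 0.15. Plagl1 had 225 and 18 counts (9.05 and 0.725 cpm), 12.5-fold lower with an interval of 7.72 to 21.4 and a log2 ratio of −2.96. WT held 114 and Dnmt1-/- 279 counts of it, and again dCas9-OGA was the lowest of the 4 libraries.

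The remaining genes differed less. Impact had 3267 counts in dCas9-OGA-D242A and 1236 in dCas9-OGA, a log2 ratio of −1.39, and Snrpn had 1651 and 800, a log2 ratio of −1.03. Mest (3711 and 1850 counts) and Sgce (391 and 195) lay just inside the 2-fold limit on the log2(cpm + 0.5) scale, at −0.997 and −0.96, and were both 2.00-fold lower without the pseudocount. Peg10, with 17014 and 9441 counts, and Peg3, with 2545 and 1511, had log2 ratios of −0.85 and −0.75. The intervals of the 8 ratios all lay below 0. Usp29 had 32 and 11 counts, too few for the comparison, and Airn was at 0 in both libraries, which allows up to 3 counts in each.

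On the log2(cpm + 0.5) scale 4 of the 8 were past 2-fold lower (Nnat, Plagl1, Impact and Snrpn), where 12.1% of all genes compared were past 2-fold, 7.22% lower and 4.88% higher. The count was 3 to 5 under other scalings and pseudocounts, as Snrpn or Mest crossed the limit, and it was 6 on the folds without a pseudocount, with Mest and Sgce added. The median log2 ratio of the 8 genes was −1.01, against 0.03 for all genes. Among the further paternally expressed genes 11 could be compared, of which 9 were lower and 2 higher, with a median of −0.12. Zfp264 (147 and 4 counts) and Sfmbt2 (1496 and 247 counts) were past 2-fold, with log2 ratios of −3.28 and −2.54. Of 17 neighboring genes 11 were higher and 6 lower, with a median of 0.09, and Atp10a alone was past 2-fold (−1.88).

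Other genes moved between the same 2 libraries. The 6 neural markers summed to 183 cpm with the inactive fusion and 61.4 cpm with the active one, with Tubb3 at 3097 and 575 counts and Pax6 at 124 and 9, while Sox1 went the other way at 31 and 332 counts. The 6 fibroblast markers summed to 73.4 and 56.7 cpm, the 6 ES cell markers to 3266 and 4259 cpm and the 5 endoderm markers to 8.97 and 15.4 cpm, in the same order, and no marker was at 0. The part of these markers in the lower imprinted genes was not tested. Among the maintenance factors Zfp57 was higher in dCas9-OGA, with 10491 against 2782 counts (log2 ratio 1.91), and Dppa3 was lower, with 32 against 729 (−4.06). Zfp57 was at 351 cpm in the single WT library, 423 with dCas9-OGA and 112 with its D242A form, so the D242A library stood further from WT. Trim28 (−0.03) and Setdb1 (0.02) were close to equal, Zfp445 and Uhrf1 were at 0.69 and 0.61, and Dnmt3l was at −0.34.

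**Figure D4:**
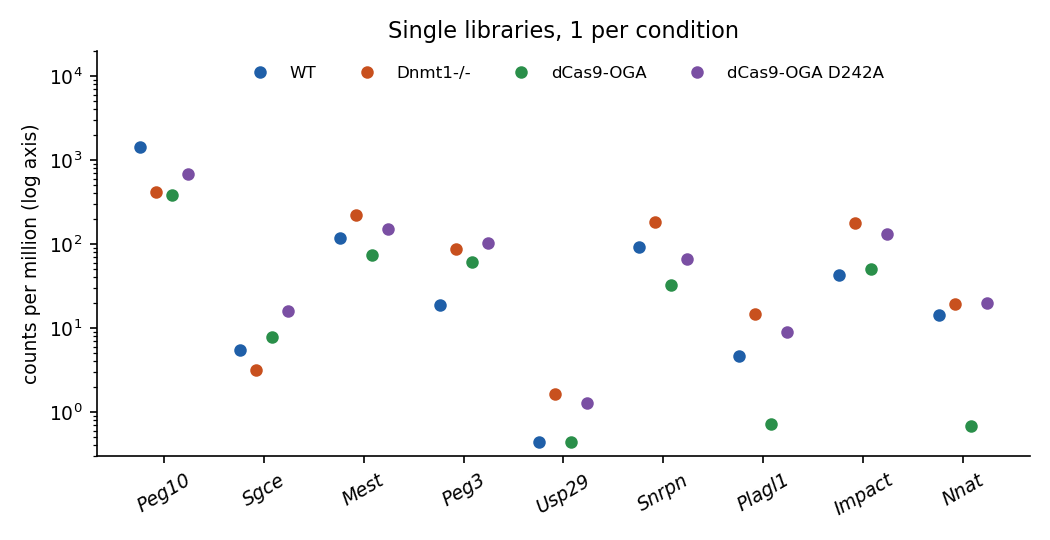
Scaled counts in cpm (log axis, TMM factors) of 9 of the genes in the 4 single libraries, 1 point per library; Airn, with 0 to 2 counts, is not drawn. The dCas9-OGA point lies below the dCas9-OGA-D242A point for each gene, most for Nnat and Plagl1.

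Set against the single WT library, the 2 dCas9 libraries lay on either side of it for some genes, and both of these comparisons share that WT library. In dCas9-OGA 1 of the 8 genes was at least 2-fold higher than in WT (Peg3) and 4 were at least 2-fold lower (Nnat, Plagl1, Peg10 and Snrpn), against 23.8% of all genes in either direction, 14.0% higher and 9.78% lower. In dCas9-OGA-D242A 3 were at least 2-fold higher (Peg3, Impact and Sgce) and 1 lower (Peg10), against 20.8% of all genes, 12.5% higher and 8.28% lower. Plagl1 was at 4.60 cpm in WT, 0.725 with dCas9-OGA and 9.05 with its D242A form. Peg3, in contrast, was at 19.0 cpm in WT and higher in both, at 60.9 and 102 cpm, and Peg10 was at 1440 cpm in WT and lower in both, at 380 and 685 cpm. Per kilobase of exon, the level in the WT library was highest for Peg10 (216 cpm per kb), followed by Snrpn (42.7), Mest (29.6), Impact (8.29), Nnat (7.76), Peg3 (1.42), Plagl1 (0.588) and Sgce (0.521), with Usp29 and Airn at 0.0245 and 0.0224 on 11 and 2 counts. Neighbors in this order cannot be compared beyond counting error, as there is 1 library.

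The third comparison repeats Dnmt1-/- against WT in the single libraries. Of the 8 genes with enough counts 6 were higher and 2 lower in Dnmt1-/-, 3 of them at least 2-fold higher (Peg3, Impact and Plagl1) and 1 at least 2-fold lower (Peg10), against 10.5% and 6.89% of all genes compared, or 17.4% in either direction. Plagl1 (279 against 114 counts, log2 ratio 1.57) and Mest (4160 against 2890, 0.91) were higher here as in the replicates, and Sgce (60 against 137, −0.72) was lower in both. Nnat, which the replicate files do not list, was at 371 and 352 counts, a log2 ratio of 0.45 with a fold interval of 1.18 to 1.59.

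Peg10, Snrpn and Usp29 went the other way. Peg10 was 3.50-fold lower in the single Dnmt1-/- library, at 412 against 1440 cpm (log2 ratio −1.80), but 5.83-fold higher in the replicates. Snrpn was higher, with 3463 against 2286 counts (0.98), and Usp29 had 31 against 11 counts, too few for the comparison, although both were lower in the replicates. Peg3 and Impact, which differed by 1.08-fold or less in the replicates, were 4.55-fold and 4.19-fold higher in the single Dnmt1-/- library. Within the WT cells the place of Peg10 among the 26797 common genes was above 92.4% to 93.4% of them in the replicates and above 99.9% in the single library, and that of Impact above 96.7% to 97.2% and 82.1%. The ratio of Peg10 to Sgce counts was 261 in the single WT library, 131 in Dnmt1-/-, 48.4 with active dCas9-OGA and 43.5 with its D242A form. Fibroblast markers were lower in Dnmt1-/- in the single libraries too (33.6 against 59.9 cpm summed), and endoderm markers were lower (9.21 against 29.3 cpm), where they were higher in the replicates. Neural markers were higher (272 against 215 cpm), where they were lower in the replicates, and ES cell markers summed to 3016 against 3727 cpm. The part of these markers was not tested.

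**Figure D5:**
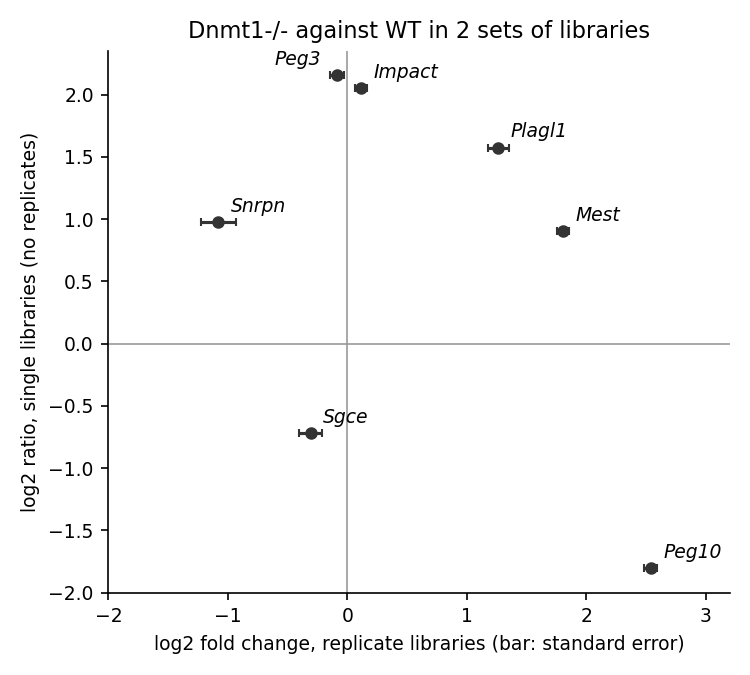
Log2 difference between Dnmt1-/- and WT of the 7 genes that could be compared in both sets, in the replicate libraries (horizontal, with standard errors) and in the single libraries (vertical, without replicates). Mest, Plagl1 and Sgce share a direction, Peg10 and Snrpn do not, and Peg3 and Impact lie near 0 on the horizontal axis only.

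Nnat, missing from the replicate files, lies wholly inside another gene. Of 822 genes with at least 100 counts over the single libraries that lie wholly inside the span of another gene, 778 (94.6%) were not listed in the replicate files, against 89 of 13103 other genes (0.679%). Ndn, Magel2, Mkrn3, Snurf, Peg13, Zrsr1, Mcts2 and Nap1l5 of the further list also lie wholly inside another gene and were not listed. In the single libraries Ndn had 630 counts in WT, 557 in Dnmt1-/-, 203 with dCas9-OGA and 365 with its D242A form, so such genes were measured there only.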

How the data were processed

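RNA-seq libraries of ES cells were used as deposited: 6 replicate libraries and 4 single libraries. ChIP-seq and input samples were not analyzed here. Per the study's methods the authors mapped reads to mm10 with HISAT2 2.1.0 and counted them on Ensembl genes with featureCounts 1.5.0; the labels name TopHat2 2.0.11 for the dCas9 samples and an unstranded kit, where the paper names a stranded one. For the replicates the authors deposited a normalized signal whose column headers did not match, so it was read by position; every value was a whole multiple (within 0.01) of 1 step per library, and whole reads were recovered. For the single libraries the authors deposited gene counts, unnormalized.

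Signals were tested with limma 3.58.1 (trend) on log2(signal + 0.5), for genes passing edgeR's filterByExpr on the recovered reads, with Benjamini-Hochberg adjustment at 0.05. edgeR 4.0.16 (quasi-likelihood), DESeq2 1.42.0, TMM rescaling, pseudocounts of 0.1 and 2, no filter, a replicate block and leaving out each library were alternatives. Single libraries were compared on log2(cpm + 0.5) with TMM factors, without a test, for genes with at least 100 counts over the pair; alternatives were total counts, DESeq2 size factors, both pseudocounts and a minimum of 20 counts. The scripts were tested on simulated data. The tables were normalized separately and were tested within a table only.

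The genes and lists were chosen with earlier results of these data known. Named were the 10 genes, Dnmt1, genes of the further lists past the test and 2-fold and 7 maintenance factors. Also named were 5 genes sharing or flanking a transcript (Igf2r, Snurf, Blcap, Copg2 and Ube3a). Zfp264, Jade1, Sfmbt2, Ndn, Ppp1r9a, Cep41, Zim1, Casd1 and the genes missing from the replicate files were named after their values were seen. The same holds for Col1a2, Phactr2, Pon3, Zik1 and Zim3. A single neighboring gene is counted but not reported here. Annotation was GENCODE vM21 (GRCm38), which matched 49326 of 49671 identifiers. Figures were drawn with matplotlib 3.10.9, tables were handled with pandas 2.3.3 and NumPy 2.4.6 under Python 3.11.15, and models were fitted in R 4.3.3.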

Additional observations from a re-analysis of the deposited data

Results flagged for a closer look

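For 3 of the imprinted genes the single libraries and the replicate libraries went in opposite directions between Dnmt1-/- and WT. All 3 Dnmt1-/- replicates lay on one side of all 3 WT replicates, and the single Dnmt1-/- library lay on the other side of the single WT library. Peg10 had a log2 fold change of 2.54 in the replicates and a log2 ratio of −1.80 in the single libraries. Usp29 had −1.09 and 1.17, the latter from 31 and 11 counts, and Snrpn had −1.08 and 0.98. The difference between the 2 sets was not tested, as the single libraries have no replicates and the tables were normalized separately. Groups of 3 are too small for a search for libraries far from the others.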

How the results depend on the processing

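The counts of genes past the test varied little: 6 or 7 of the imprinted genes, 7 or 8 of the further paternally expressed genes and 12 to 15 of the neighbors were called under the 13 alternatives, and the same ranges held when 1 library was left out. The replicate numbers did not pair the libraries (correlations of same-numbered libraries 0.07, −0.02 and 0.07), and with the replicate block 7, 8 and 15 genes were called. Impact lost its call under the 7 settings named with it, and the sign of Airn turned without WT replicate 1 or Dnmt1-/- replicate 1 (−0.10 to 0.085 over the left-out libraries); no other gene of the 9 lost its call or turned. Between dCas9-OGA and dCas9-OGA-D242A 3 to 5 genes were past 2-fold, and between the single Dnmt1-/- and WT libraries 4 or 5. With a pseudocount of 2 the log2 ratios of Nnat and Plagl1 in dCas9-OGA were −3.03 and −2.02, and with 0.1 Nnat reached −4.68. Single libraries cover counting error only, Usp29, Snrpn (replicates) and Airn rest on few reads, and neither table separates the parental alleles.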
